A study of Mus musculus with 20 samples.

Results

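The comparison set 4 libraries of long-cultured primed mouse cells (days 27 to 30) against 4 libraries of the same lines taken at day 4 of the switch out of the naive state, 8 of the 20 small RNA libraries of the study. The members were chosen by line, experiment and day alone, with no measured value. Male E14 and female PGK mouse embryonic stem cells had been kept in 2i, a medium that holds naive cells through inhibitors of Mek and Gsk3. They were then plated on fibronectin in N2B27 with Activin A and Fgf2, which carries them to epiblast stem cells (EpiSCs), the primed pluripotent state. All 8 libraries therefore come from cells in the same EpiSC medium, and the stages differ in the time in it and in what goes with that time, such as the number of splits. Day 4 is the day of the first split in that protocol, and the later cells had been split every few days since. Each line was followed in 2 differentiation experiments, called replicates 2 and 3 after the labels, and values are given in that order. The late libraries were E14 at days 27 and 30 and PGK at day 29 in both experiments. In replicate 2 the late libraries are titled and numbered apart from the day 4 ones, and what this reflects is not stated. With a single line of each sex, effects of sex and of line cannot be told apart. The spread behind each p-value is that between these differentiation experiments, and in the test over both lines it also holds the difference between the lines in the change. That test takes same-numbered libraries of the 2 lines as independent. Their deviations from group means correlated at 0.578 at day 4 and 0.137 late, so at day 4 they were not fully so.

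MicroRNAs (miRNAs) are short RNAs cut from a hairpin, of which either arm (5p or 3p) can be loaded into Argonaute and silence mRNAs that pair with bases 2 to 8, the seed. Pluripotent cells are known for miRNAs that share the AAGUGCU seed, made by the miR-290 cluster in naive and early mouse cells and by the miR-302 cluster in primed ones, while mature let-7 is held back by the protein Lin28. Other clusters mark lineages: miR-200 miRNAs keep epithelial cells from becoming mesenchymal, miR-199a and miR-214 come from the Dnm3os transcript of mesenchyme, and the imprinted Dlk1-Dio3 region carries a large miRNA cluster read from the maternal chromosome.

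The mature sequences below are those the changes turn on (RefSeq, GRCm38.p6, 5′ to 3′), with the seed in capitals. RefSeq sequences were matched to 185 of the miRNAs called below (97 higher and 122 lower). The first set rose and fell into families by seed: miR-99a, miR-99b and miR-100 share one, and miR-125a, miR-125b and the X-linked miR-351 share another.
miR-99a-5p: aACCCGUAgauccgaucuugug
miR-99b-5p: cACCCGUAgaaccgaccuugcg
miR-100-5p: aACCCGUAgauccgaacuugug
miR-125a-5p: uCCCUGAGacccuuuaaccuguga
miR-125b-5p: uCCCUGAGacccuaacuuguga
miR-351-5p: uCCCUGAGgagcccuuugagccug
let-7e-5p: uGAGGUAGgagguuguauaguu
miR-199a-5p: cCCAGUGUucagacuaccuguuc
miR-199a-3p: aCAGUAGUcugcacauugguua
miR-214-3p: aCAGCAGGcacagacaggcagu
miR-181a-5p: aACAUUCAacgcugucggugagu
miR-335-5p: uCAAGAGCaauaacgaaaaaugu
The second set is the miR-200 family, shown because 2 loci with the same pair of seeds behaved differently: miR-141 and miR-200c lie on chromosome 6, miR-200a and miR-200b on chromosome 4.
miR-141-3p: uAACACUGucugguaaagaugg
miR-200a-3p: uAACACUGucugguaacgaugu
miR-200c-3p: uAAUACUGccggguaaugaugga
miR-200b-3p: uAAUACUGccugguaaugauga
The last set holds other miRNAs that fell: 3 of the X-linked testis cluster, the most abundant Dlk1-Dio3 miRNA, miR-211 and the most abundant miR-290 member.
miR-871-3p: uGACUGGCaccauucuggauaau
miR-470-5p: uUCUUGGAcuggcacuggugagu
miR-881-3p: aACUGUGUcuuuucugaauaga
miR-127-3p: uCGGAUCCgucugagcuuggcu
miR-211-5p: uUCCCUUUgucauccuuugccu
miR-295-3p: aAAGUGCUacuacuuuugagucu

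Of 1063 miRNAs in the tables of both lines, 761 passed the filter on low counts and held 99.9946% of all counts. Totals were 8.26 to 15.7 M counts per library (M, 1e6 counts), 885 to 915 miRNAs were detected in each, and the 10 most abundant took 44.7% to 60.4%. A first principal component with 64.8% of the variance separated late libraries (18.5 to 26.4) from day 4 ones (-38.6 to -1.95). Levels are CPM, counts scaled to library size with TMM factors, and a count of 0 allowed 0.191 to 0.363 plain CPM, counting error only. Shares of counts are taken without TMM scaling. The TMM factors were 0.682 to 1.09 at day 4 and 1.07 to 1.22 late, so a share can rise where the CPM does not. The label of primed cells was checked on the miR-302 and miR-367 cluster, typical of that state, which took 0.942% to 1.93% of counts at day 4 and 1.42% to 3.53% late, against 0.0141% to 0.0520% in the 4 day 0 libraries.

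From day 4 to the late stage, 97 miRNAs rose (12.7% of those tested) and 122 fell (16%) in edgeR's quasi-likelihood test over both lines, with Benjamini-Hochberg adjustment at 0.05. Counts of called members of the lists below are to be read beside these shares, and no list was tested for an excess of calls. A change is given as log2 of late over day 4 with its standard error (SE). The change passed 2-fold for 77 of the higher and 84 of the lower ones, and a log2 change of 3 in either direction for 20 and 41. All 4 late libraries lay above all 4 day 4 libraries for 99 miRNAs (13%) and below them for 90 (11.8%). Of the called ones, 82 higher and 76 lower miRNAs had no such overlap. The median log2 change of all tested miRNAs was 0.01. Scaled by library totals instead of TMM, that median moved to 0.48, and 20.4% were called higher and 8.54% lower, so changes below are relative to the bulk of miRNAs. Without late PGK replicate 3 the calls numbered 63 higher and 71 lower.

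**Figure D1:**
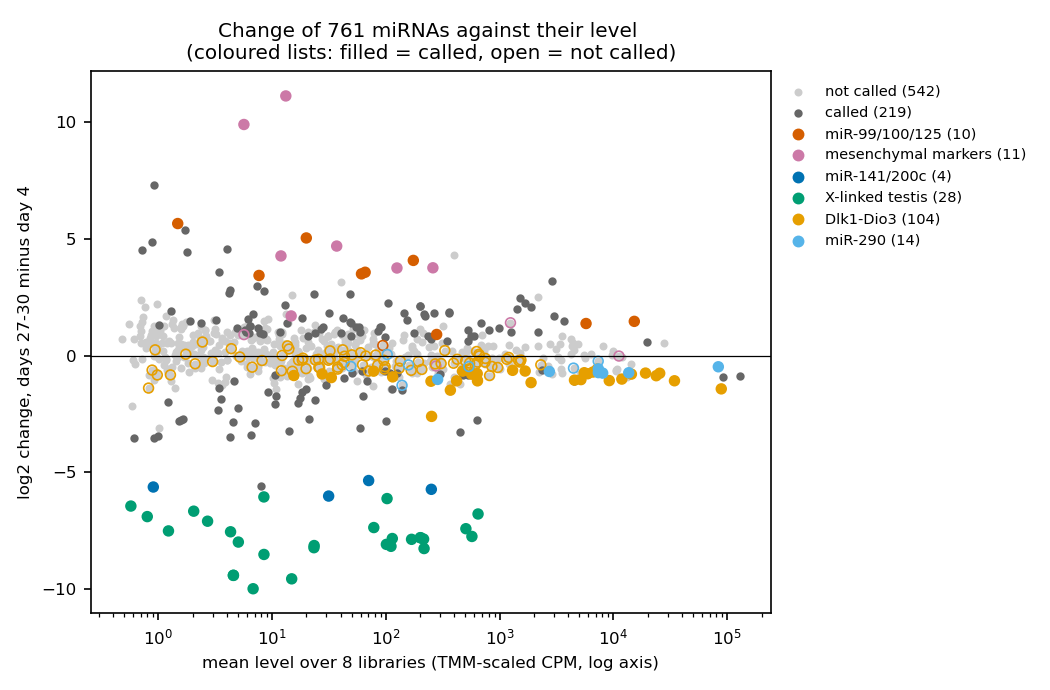
Log2 change from day 4 to days 27 to 30 in both lines (y axis) against the mean CPM over the 8 libraries (x axis, log), 1 point per tested miRNA, 761 in all, with 6 lists coloured. The X-linked testis list and miR-141/200c lie below -5, miR-99, miR-100, miR-125 and the mesenchymal markers are among the large rises.

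The miR-99/100 and miR-125 miRNAs rose together in the count of calls. They are old families whose genes sit beside let-7 genes in shared transcripts. Of 10 tested members 9 rose and 0 fell, with a median log2 change of 3.47 against 0.01 over all miRNAs. Their summed share was 0.556% to 1.64% of counts at day 4 and 3.03% to 4.69% late. The exception was miR-125a-3p (0.43 ± 0.30, edgeR adjusted p = 0.294).

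The cluster in the Spaca6 gene on chromosome 17 gave the abundant members. For miR-99b-5p (chromosome 17, 17830188 to 17830257, intron) the libraries held 9554 and 11388 CPM (E14) and 5293 and 6978 CPM (PGK) at day 4, and 29479.7 and 18244 CPM (E14) and 24557 and 16398 CPM (PGK) late. No late library was as low as any day 4 one, and the change was 1.46 ± 0.24 (edgeR adjusted p = 0.00367), a 2.76-fold rise. It went from the 29th to the 7th most abundant miRNA by mean CPM. The neighbour miR-125a-5p, read from an exon of the same gene, had 4301 and 3263 CPM (E14) and 2587 and 2777 CPM (PGK) at day 4, and 8508 and 8602 CPM (E14) and 8488 and 7382 CPM (PGK) late, again without overlap (1.37 ± 0.17, edgeR adjusted p = 0.0018). Between them lies let-7e (chromosome 17, 17830352 to 17830444), and let-7e-5p had 116 and 132 CPM (E14) and 201 and 190.2 CPM (PGK) at day 4, and 497 and 549 CPM (E14) and 505 and 684 CPM (PGK) late, without overlap. Its change was 1.84 ± 0.21 (edgeR adjusted p = 0.00139), and its other arm let-7e-3p rose by 1.40.

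The clusters on chromosomes 9 and 16 started from much lower levels. On chromosome 9 miR-125b-5p (chromosome 9, 41581926 to 41582002, 1 of its genes, in an intron of 3110039I08Rik) stood at 8.71 and 14.001 CPM (E14) and 16.8 and 48.1 CPM (PGK) at day 4, and 116 and 482 CPM (E14) and 353 and 354 CPM (PGK) late. The lowest late library was above the highest day 4 library, and the rise was 4.08 ± 0.60 (edgeR adjusted p = 0.00263), 16.9-fold. The arm specific to this gene, miR-125b-1-3p, rose by 3.57 ± 0.52, and miR-100-5p (chromosome 9, 41531425 to 41531504) from 9.92 ± 9.05 to 112 ± 40.5 CPM (SD, n = 4 each), a change of 3.50 ± 0.80 (edgeR adjusted p = 0.013). In Mir99ahg on chromosome 16, miR-99a-5p (chromosome 16, 77598936 to 77599000) was close to the floor at day 4 and higher late: 1.62 and 1.13 CPM (E14) and 1.03 and 0.920 CPM (PGK) at day 4, and 8.29 and 68.4 CPM (E14) and 40.1 and 38.2 CPM (PGK) late. This was a change of 5.04 ± 0.65 (edgeR adjusted p = 0.00198), and the arm specific to the gene next to it, miR-125b-2-3p, rose by 3.43 ± 0.75.

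The let-7 miRNAs of these transcripts did not all follow. At its hairpin in Mir99ahg, let-7c-1-3p had 0 counts in the 4 day 4 libraries and 80 in the late ones, at least 25.4-fold higher against a floor of 3 counts over the day 4 group. Yet mature let-7c-5p, which has another gene as well, held 230.1 and 362 CPM (E14) and 432 and 422 CPM (PGK) at day 4, and 217.7 and 621 CPM (E14) and 401 and 373 CPM (PGK) late, with overlap and a change of 0.18 ± 0.34 (edgeR adjusted p = 0.707). Of 18 tested let-7 and miR-98 arms 3 rose (let-7e-5p, let-7e-3p and let-7c-1-3p) and 0 fell, with a median of 0.15. The most abundant without a call, let-7f-5p, changed by 0.13 ± 0.27 and let-7a-5p by 0.71 ± 0.26 (edgeR adjusted p = 0.0671).

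Summed by seed over the tested miRNAs with a RefSeq sequence, the 3 miRNAs with seed ACCCGUA (miR-99a, miR-99b, miR-100) went from 8314 ± 2706 to 22321 ± 5978 CPM (SD, n = 4 each). The 3 with CCCUGAG (miR-125a, miR-125b, miR-351) went from 4681 ± 796 to 11453 ± 1005 CPM. The 9 with the let-7 seed GAGGUAG had 1743 ± 618 and 2341 ± 544 CPM, a difference about the size of the spread.

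**Figure D2:**
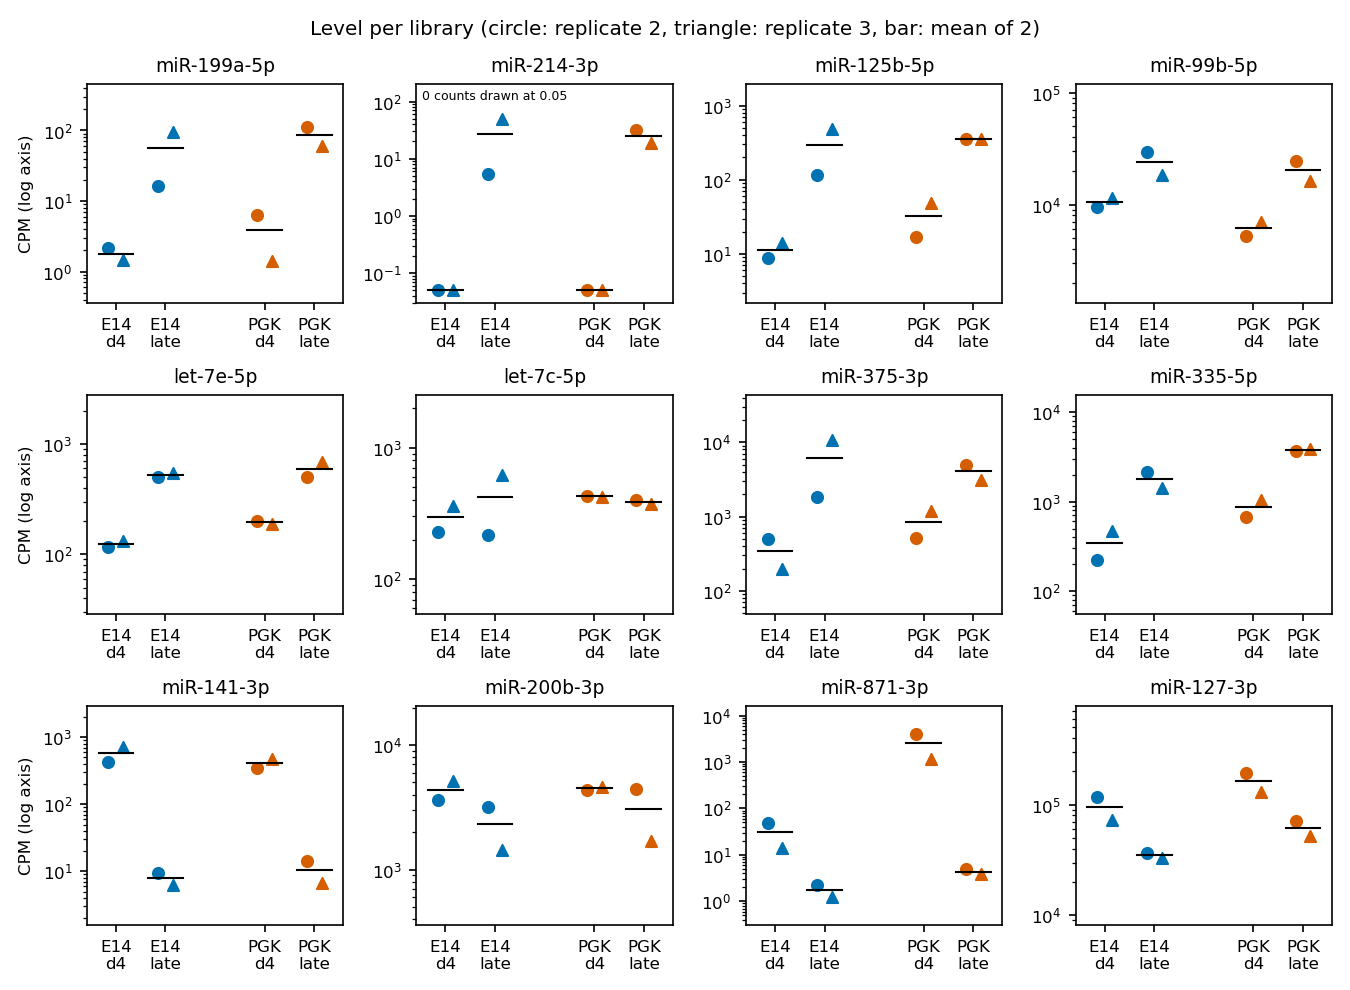
CPM per library (log axis) of 12 miRNAs in E14 (blue) and PGK (orange) at day 4 (d4) and days 27 to 30 (late), replicate 2 as a circle and replicate 3 as a triangle, with a bar at each mean of 2. Rising and falling miRNAs are separated between stages in both lines, while let-7c-5p and miR-200b-3p overlap, and miR-871-3p is high in PGK day 4 cells.

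miRNAs known from mesenchymal cells rose as well. Of 11 tested members of that marker list 7 rose and 0 fell, with a median of 3.75, where 12.7% of all tested miRNAs rose and 16% fell. The list took 0.871% to 1.29% of counts at day 4 and 1.22% to 2.09% late, most of it miR-21a-5p. With TMM scaling miR-21a-5p was not called (-0.02), so the larger share does not measure the rise of the called members. In these bulk samples more cells of a type and more RNA per cell cannot be told apart, and the part of other cell types in any change here was not tested. The largest were the Dnm3os miRNAs: miR-214-3p (chromosome 1, 162223368 to 162223477, an exon of Dnm3os) had 0 counts in all 4 day 4 libraries and 5.35 and 49.6 CPM in late E14 and 31.4 and 19.2 CPM in late PGK cells, 1154 counts in all. Against 3 counts over the day 4 group this is at least 366-fold higher (edgeR adjusted p = 0.00446). Its other arm went from 0 to 488 counts, at least 154.9-fold higher.

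For miR-199a-5p (chromosome 9, 21496495 to 21496564, 1 of 2 genes, the other in Dnm3os), the libraries held 2.16 and 1.44 CPM (E14) and 6.35 and 1.43 CPM (PGK) at day 4, and 16.2 and 95.5 CPM (E14) and 112 and 60.0 CPM (PGK) late. Every late library was above every day 4 library, by the least in E14 replicate 2, and the change was 4.69 ± 0.70 (edgeR adjusted p = 0.00263), 25.8-fold. Its 3p arm went from 35.5 ± 12.4 to 482 ± 255 CPM (SD, n = 4 each) (3.76 ± 0.53, edgeR adjusted p = 0.00263). That mature sequence is identical in miR-199a and miR-199b, and the counts of the former were 2.04 to 2.09 times those of the latter in all 8 libraries, so both are 1 readout here. The 5p arm that belongs to miR-199b alone, miR-199b-5p, rose by 4.27 ± 0.57 (edgeR adjusted p = 0.00226). In contrast miR-21a-5p, abundant in many differentiated cells, had 10618 and 11014 CPM (E14) and 13385 and 9512 CPM (PGK) at day 4, and 8430.0 and 9226 CPM (E14) and 13157 and 14007 CPM (PGK) late and a change of -0.02 ± 0.18 (edgeR adjusted p = 0.936). In smooth muscle and fibroblasts miR-143 and miR-145a are typical: miR-145a-5p rose from 7.03 ± 2.75 to 22.3 ± 7.23 CPM (SD, n = 4 each) (1.70 ± 0.36, edgeR adjusted p = 0.0102), while miR-143-3p changed by 1.40 ± 0.54 (edgeR adjusted p = 0.0829).

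Neural and muscle markers moved in both directions, and the tested endoderm markers were not called. Of 15 tested neural miRNAs 4 rose and 2 fell, with a median of -0.31. Over all tested miRNAs 12.7% rose and 16% fell, so the neural falls were no more frequent than that. The risers were miR-218-5p (266 and 198.9 CPM (E14) and 66.5 and 117 CPM (PGK) at day 4, and 359 and 1013 CPM (E14) and 407 and 422 CPM (PGK) late), read from introns of the axon guidance genes Slit2 and Slit3, its arm miR-218-1-3p (3.59 ± 0.45), miR-138-5p (0.84 ± 0.19) and miR-153-3p (1.24 ± 0.24). Those that fell were both arms of miR-124, the neuronal miRNA, with miR-124-3p going from 42.5 ± 6.62 to 17.4 ± 7.57 CPM (SD, n = 4 each) (-1.28 ± 0.36, edgeR adjusted p = 0.0276). No neural miRNA was called lower without day 4 E14 replicate 2, late PGK replicate 2 or late PGK replicate 3, and 1 was without day 4 PGK replicate 2. With library totals 0 were called lower, and with the replicate block 1 was. The neural list took 0.125% to 0.241% of counts at day 4 and 0.184% to 0.388% late. Of the muscle list 3 of 12 passed the filter, and miR-208b-3p, in an intron of the slow myosin gene Myh7, rose from 6.55 ± 3.36 to 39.7 ± 14.3 CPM (SD, n = 4 each) (2.64 ± 0.43, edgeR adjusted p = 0.00381) while miR-499-5p fell by 1.09 on the log2 scale. The remaining one, miR-133a-3p, was not called (-1.01). No muscle miRNA was called lower with library totals, no filter or the replicate block. The same held without day 4 E14 replicate 2, late E14 replicate 2 or 3, or late PGK replicate 3. The list took 0.00248% to 0.00628% of counts at day 4 and 0.00550% to 0.0105% late, and miR-206-3p had 1 and 3 counts in the 2 stages. Of the endoderm list miR-192-5p and miR-194-5p were tested and not called (-0.07 and 0.23), at 0.0318% to 0.0543% of counts at day 4 and 0.0524% to 0.0774% late, and miR-122-5p had 0 and 1 counts.

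Most blood and endothelial markers were lower late, with 5 of 8 tested called, against 16% of all tested miRNAs. Their median was -1.82, and they took 0.0873% to 0.121% of counts at day 4 and 0.0510% to 0.0810% late. The haematopoietic miR-142-5p (chromosome 11, 87756864 to 87756927, an intron of Mir142hg) had 51.1 and 59.5 CPM (E14) and 159.9 and 151 CPM (PGK) at day 4, and 8.65 and 5.19 CPM (E14) and 18.1 and 15.1 CPM (PGK) late, without overlap (-3.11 ± 0.25, edgeR adjusted p = 0.000186). For miR-150-5p, known from mature lymphocytes, the values were 104 and 98.9 CPM (E14) and 303 and 208.2 CPM (PGK) at day 4, and 40.0 and 18.4 CPM (E14) and 14.4 and 21.5 CPM (PGK) late, and the change was -2.81 ± 0.50 (edgeR adjusted p = 0.00465). The endothelial miR-126-5p fell by 0.84 ± 0.19 (edgeR adjusted p = 0.0132), and miR-451a, an erythroid marker, had 23 counts at day 4 and 12 late, too few to test. In the other direction, miR-155-5p had 33.2 ± 16.7 CPM at day 4 and 54.1 ± 17.4 CPM late (SD, n = 4 each) and was not called. The list's calls were 3 without late PGK replicate 3 and 3 with library totals.

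miR-375-3p, best known from pancreatic islets, was the most abundant of the large rises (chromosome 1, 74900658 to 74900721, intergenic). Its libraries held 502.9 and 195.7 CPM (E14) and 508 and 1199 CPM (PGK) at day 4, and 1808 and 10640.2 CPM (E14) and 4943 and 3147 CPM (PGK) late. The highest value was late E14 replicate 3, and every late library was above every day 4 one, for a change of 3.20 ± 0.71 (edgeR adjusted p = 0.0116). The imprinted, paternally expressed Mest gene hosts miR-335 (chromosome 6, 30741299 to 30741396, intron), and miR-335-5p had 221.8 and 465 CPM (E14) and 677 and 1041 CPM (PGK) at day 4, and 2162 and 1408 CPM (E14) and 3662 and 3823 CPM (PGK) late, without overlap (2.25 ± 0.29, edgeR adjusted p = 0.00198). Its 3p arm rose by 1.49 ± 0.29. In an intron of Igf2, another imprinted gene, miR-483-3p rose from 0.329 ± 0.402 to 7.65 ± 4.63 CPM (SD, n = 4 each) (4.56 ± 0.66, edgeR adjusted p = 0.00263), and miR-3099-3p, in an intron of the imprinted Usp29, from 14.1 ± 7.51 to 81.6 ± 24.5 CPM (SD, n = 4 each) (2.63 ± 0.27, edgeR adjusted p = 0.000734).

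Of the miR-181 family, known from lymphocytes and neural tissue, 7 of 9 tested arms rose (median 1.71), against 12.7% of all tested miRNAs. The family took 0.314% to 0.645% of counts at day 4 and 0.894% to 1.87% late. The most abundant member that rose, miR-181a-5p (chromosome 1, 137966455 to 137966541, 1 of 2 genes), had 1424 and 419 CPM (E14) and 3121 and 924 CPM (PGK) at day 4, and 2089 and 6217 CPM (E14) and 4479 and 5143 CPM (PGK) late. At day 4 replicate 2 was above replicate 3 in both lines, and the late value of E14 replicate 2 lay below the highest day 4 value. Its change, 1.71 ± 0.55 (edgeR adjusted p = 0.0488), was close to the threshold, and its call was lost in 9 of 16 alternatives. The family's calls fell to 2 without late E14 replicate 3 or late PGK replicate 3. They fell to 4 without late PGK replicate 2 or day 4 PGK replicate 3, and to 3 with all 20 libraries. The adjusted p was lower for miR-181c-3p (1.09 ± 0.24, edgeR adjusted p = 0.0111).

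The miR-23a/27a/24-2 cluster on chromosome 8, known to be widely expressed in differentiated cells, gave most of the next rises. Where 12.7% of all tested miRNAs rose, 5 of 11 tested arms of these families did (median 0.9998): miR-23a-3p, miR-24-2-5p, miR-24-1-5p, miR-24-3p and miR-27a-3p. Their calls fell to 3 without late E14 replicate 3 and to 3 without late PGK replicate 3. The largest rise was that of miR-24-2-5p (chromosome 8, 84208815 to 84208921), which went from 77.3 ± 46.0 to 324 ± 91.5 CPM (SD, n = 4 each) (2.14 ± 0.36, edgeR adjusted p = 0.00429). Its counts and those of miR-3074-2-3p, annotated on the opposite strand of the same place, differed by a ratio of at most 1.01 in every library, so both calls are 1 readout. The abundant miR-27a-3p had 283 and 470.2 CPM (E14) and 830.0 and 896 CPM (PGK) at day 4, and 952 and 880.5 CPM (E14) and 1691 and 1880.1 CPM (PGK) late (1.17 ± 0.21, edgeR adjusted p = 0.00459). Its near copy miR-27b-3p, from another chromosome, was more abundant and changed by -0.37 ± 0.17 (edgeR adjusted p = 0.136). In the X-linked miR-322 cluster 4 of 12 tested arms rose, namely both arms of miR-322 and miR-351, with miR-351-5p at 1526 and 1280.2 CPM (E14) and 1459 and 1443 CPM (PGK) at day 4, and 3295 and 3410.0 CPM (E14) and 2403 and 2418 CPM (PGK) late (0.99 ± 0.17, edgeR adjusted p = 0.00454). Further along that cluster miR-450b-5p (-0.37) and miR-542-3p (0.05) were not called.

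miR-22-3p, which targets Tet enzymes, rose from 15755 ± 4995 to 23355 ± 5756 CPM (SD, n = 4 each) (0.59 ± 0.16, edgeR adjusted p = 0.0269). The call of miR-22-3p was lost in 6 of 16 alternatives: TMM without Dlk1-Dio3, all 20 libraries (0.35, edgeR adjusted p = 0.373), and without late E14 replicate 2, day 4 E14 replicate 3, day 4 PGK replicate 3 or late PGK replicate 3. A set of less studied entries had their highest value in late PGK replicate 2. miR-2137 had 283 and 244 CPM (E14) and 1056 and 205 CPM (PGK) at day 4, and 2094 and 585 CPM (E14) and 6305 and 1348 CPM (PGK) late (2.47 ± 0.67, edgeR adjusted p = 0.0237), and miR-5109, miR-5126 and miR-6240 were also highest there (2.07, 1.82 and 1.69 on the log2 scale). These 4 were picked after their values were seen.

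The largest falls were those of a testis cluster on the X chromosome (66776757 to 66839125 for the tested members), a group of fast-evolving miRNAs known from male germ cells. Of the 29 members of the list 28 passed the filter, which needs enough counts in only 1 group, and PGK day 4 cells were the group where they were high. The 28 fell, which is given as a description, with a median of -7.83, or -7.70 with the 6 that had 0 late counts held at their bound. Their summed share was 0.0206% and 0.00597% in E14 day 4 cells and 1.44% and 0.489% in PGK day 4 cells. In late cells it was 0.00117% and 0.000511% (E14) and 0.00217% and 0.00211% (PGK). The 12 deepest falls of the rule for naming were all from this cluster: miR-881-3p, miR-743b-3p, miR-871-5p, miR-871-3p, miR-878-5p, miR-470-5p, miR-463-5p and 5 arms of miR-465, with log2 changes from -8.28 to -6.79.

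The most abundant of them, miR-871-3p (chromosome X, 66810428 to 66810504, intergenic), had 48.9 and 13.8 CPM (E14) and 3911 and 1174 CPM (PGK) at day 4, and 2.23 and 1.24 CPM (E14) and 4.87 and 3.83 CPM (PGK) late. Day 4 values were lower in replicate 3 than in replicate 2 in both lines, and PGK day 4 cells held all the values above 100 CPM. The change was -6.79 ± 1.32 (edgeR adjusted p = 0.00659) over both lines, -4.17 ± 0.81 in E14 and -9.19 ± 0.98 in PGK. For miR-470-5p, next to it, the change was -7.76 ± 1.25 (edgeR adjusted p = 0.00367), and for miR-881-3p it was -8.28 ± 1.35 (edgeR adjusted p = 0.00367). In E14 cells only 10 of the 28 were called, 2 of which were the abundant miR-470-5p (-5.56) and miR-465c-5p (-4.86), against 28 in PGK. The 3p arms of miR-465a, miR-465b and miR-465c have an identical sequence and count as 1 readout.

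**Figure D3:**
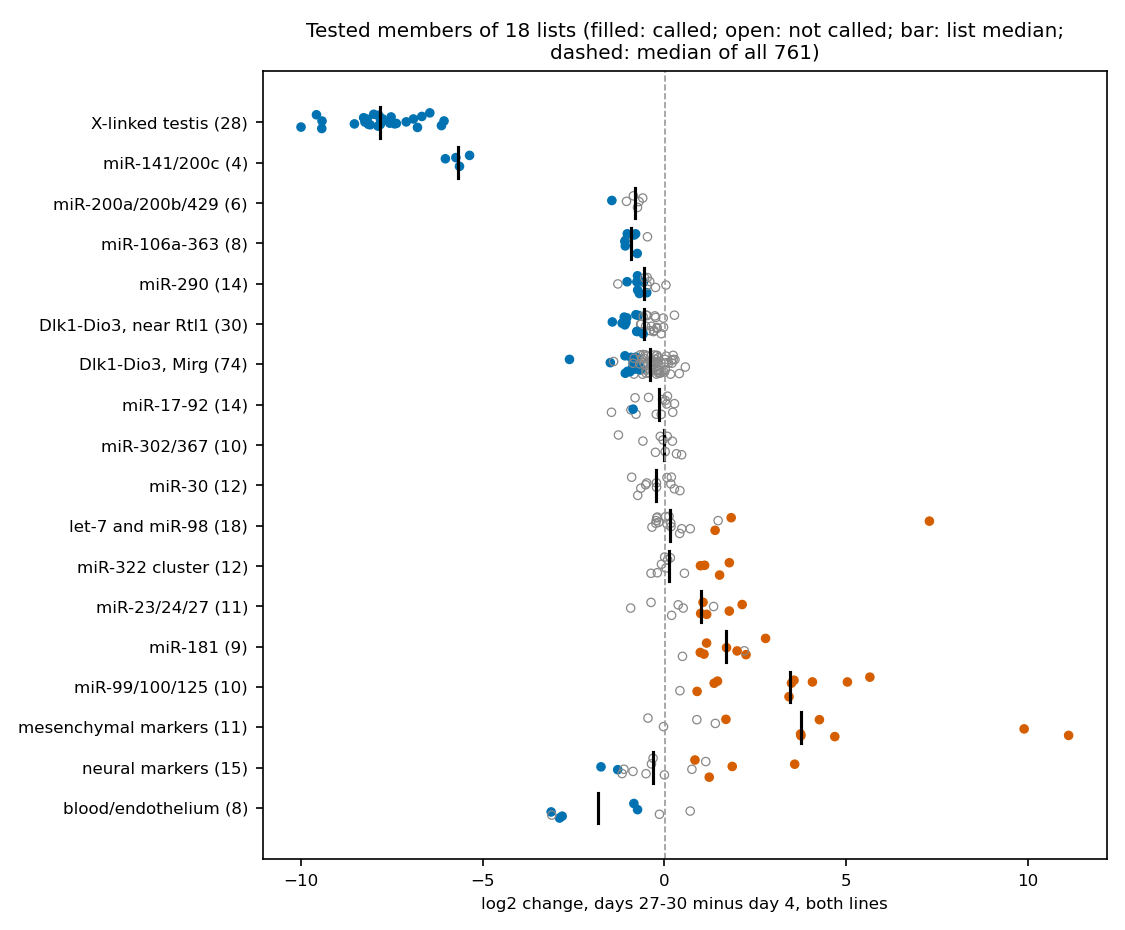
Log2 change from day 4 to days 27 to 30 (x axis) of the tested members of 18 lists (number in brackets), 1 point per miRNA, filled where called (orange higher, blue lower), with the list median as a bar and the median of all 761 miRNAs dashed. The chromosome 6 pair of the miR-200 family lies far below its chromosome 4 relatives, and the miR-302 and miR-367 arms scatter around 0.

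The miR-200 family split by locus. All 4 arms of miR-141 and miR-200c (chromosome 6, 124717914 to 124718390, an intron of Gm15884) fell, with a median of -5.69. miR-141-3p had 428 and 719 CPM (E14) and 343 and 477 CPM (PGK) at day 4, and 9.54 and 6.34 CPM (E14) and 14.2 and 6.68 CPM (PGK) late. The 4 late values were all under 15 CPM and the 4 day 4 values all over 300, a 53.3-fold fall (-5.74 ± 0.42, edgeR adjusted p = 0.000153) that was -6.17 ± 0.57 in E14 and -5.30 ± 0.55 in PGK. For miR-200c-3p the libraries held 205.9 and 154 CPM (E14) and 103 and 87.7 CPM (PGK) at day 4, and 3.21 and 2.88 CPM (E14) and 4.30 and 2.41 CPM (PGK) late, and the change was -5.36 ± 0.36 (edgeR adjusted p = 0.000153). The passenger arms moved alike, with miR-141-5p at -6.03 ± 0.47 and miR-200c-5p at 72 counts at day 4 and 1 late.

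At the chromosome 4 locus (miR-200b, miR-200a and miR-429, in Ttll10) 1 of 6 arms fell, miR-200a-5p (-1.44 ± 0.44, edgeR adjusted p = 0.0371), and the median was -0.80. The list had 0 calls with library totals and without day 4 E14 replicate 2, late E14 replicate 3, day 4 PGK replicate 2 or late PGK replicate 3. Here miR-200b-3p had 3611 and 5095 CPM (E14) and 4389 and 4639 CPM (PGK) at day 4, and 3186 and 1434 CPM (E14) and 4428 and 1685 CPM (PGK) late. Both late replicate 3 libraries were below day 4 and both late replicate 2 libraries near it, and the change was -0.74 ± 0.35 (edgeR adjusted p = 0.138). miR-200a-3p, which differs from miR-141-3p outside the seed, changed by -0.70 ± 0.30 (edgeR adjusted p = 0.115) and miR-429-3p by -0.59 ± 0.33 (edgeR adjusted p = 0.192). As a sum, the AAUACUG seed of miR-200b, miR-200c and miR-429 went from 5770.2 ± 757 to 3491 ± 1778 CPM (SD, n = 4 each), most of it from the chromosome 4 members at both stages.

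The imprinted Dlk1-Dio3 miRNAs of chromosome 12 were abundant at both stages, and part of them fell. Of the list around Rtl1, only part of which is read antisense to that gene, 12 of 30 tested members fell and 0 rose (median -0.55). In the Mirg part of the cluster 18 of 74 fell and 0 rose (median -0.40). Over all tested miRNAs 16% fell, and whether either part exceeded that share was not tested. The Rtl1 list took 14.9% to 21.01% of counts at day 4 and 8.77% to 14.8% late, the Mirg part 11.6% to 16.7% of counts at day 4 and 8.94% to 14.1% late. With library totals in place of TMM the medians were -0.11 and 0.02 and the calls 5 and 5, so the direction of the Mirg group depends on the scaling. The Mirg calls also dropped to 6 without late PGK replicate 3, 8 without late E14 replicate 3 or day 4 E14 replicate 2, 9 without day 4 PGK replicate 2 and 11 without late E14 replicate 2.

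The most abundant, miR-127-3p (chromosome 12, 109592846 to 109592915, antisense to Rtl1), held 118435 and 73040.4 CPM (E14) and 192984 and 131619 CPM (PGK) at day 4, and 36829 and 32762 CPM (E14) and 70586 and 52317 CPM (PGK) late. Late values were lower than day 4 values within each line and over both lines, and the change was -1.43 ± 0.21 (edgeR adjusted p = 0.00263). A deeper fall was that of miR-299a-5p, from 432 ± 234 to 71.6 ± 33.8 CPM (SD, n = 4 each) (-2.61 ± 0.32, edgeR adjusted p = 0.0018). The abundant Mirg member miR-541-5p had 47366 and 19682 CPM (E14) and 73933 and 46661 CPM (PGK) at day 4, and 16817 and 16782 CPM (E14) and 31206 and 22385 CPM (PGK) late (-1.08 ± 0.28, edgeR adjusted p = 0.0223). Also, miR-434-3p fell by 0.76 ± 0.14 (edgeR adjusted p = 0.00465) and miR-411-5p fell by 0.87 ± 0.18 (edgeR adjusted p = 0.00969), and all of these stayed in the 10 most abundant miRNAs of late cells except miR-299a-5p.

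The miR-290 cluster (chromosome 7) fell modestly: 7 of 14 tested arms were lower and 0 higher, with a median of -0.56. miR-295-3p (chromosome 7, 3220773 to 3220841) had 94712 and 97320.4 CPM (E14) and 96482 and 100636 CPM (PGK) at day 4, and 77630.5 and 63731 CPM (E14) and 70236 and 66790.0 CPM (PGK) late. No late library reached a day 4 one, yet the fall was only 1.40-fold (-0.48 ± 0.12, edgeR adjusted p = 0.0181). For miR-292-5p the change was -0.74 ± 0.14 (edgeR adjusted p = 0.00519), and miR-290-5p fell from 382 ± 40.5 to 187 ± 9.79 CPM (SD, n = 4 each). By contrast miR-294-3p, with the same seed as miR-295-3p, overlapped between stages (2735 and 7944 CPM (E14) and 3102 and 7326 CPM (PGK) at day 4, and 4046 and 3294 CPM (E14) and 3076 and 4094 CPM (PGK) late; -0.54 ± 0.37 (edgeR adjusted p = 0.284)), its replicate 3 day 4 libraries being high in both lines. With library totals the cluster's median was -0.14 and none of its arms was called, so this fall is relative to the other miRNAs. Calls numbered 4 without late E14 replicate 3.

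None of the 10 arms of the miR-302 and miR-367 cluster was called, and the median was -0.01 (0.38 in E14 and -0.35 in PGK). Its most abundant arm at day 4, miR-302d-3p (chromosome 3, 127545624 to 127545689), had 8291 and 2660.4 CPM (E14) and 7043 and 6343 CPM (PGK) at day 4, and 9993 and 6712 CPM (E14) and 5921 and 3908 CPM (PGK) late, and late values overlapped those of day 4 (0.08 ± 0.39, edgeR adjusted p = 0.886). miR-302a-3p changed by 0.48 ± 0.36. With these SEs the test does not show that the levels were equal. Without day 4 E14 replicate 3, the lowest library, 2 arms were called lower.

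Among cell-cycle clusters the X-linked miR-106a-363 cluster fell, with 6 of 8 arms called (median -0.92). miR-363-3p had 8467 and 6095 CPM (E14) and 5635 and 4139 CPM (PGK) at day 4, and 3006 and 3765 CPM (E14) and 2634 and 2022 CPM (PGK) late (-1.09 ± 0.19, edgeR adjusted p = 0.00465). The cluster's calls numbered 1 with library totals, 1 without day 4 E14 replicate 2, late E14 replicate 2 or late PGK replicate 3, 3 without late E14 replicate 3 and 3 with the replicate block described below. Of its relatives, 1 of 14 arms of the miR-17-92 list (median -0.15) and 0 of 6 of miR-106b-25 (-0.28) were called, and the difference between the lists was not tested. The miR-17-92 list is not wholly autosomal, since it holds miR-19b-2-5p and miR-92a-2-5p of the X-linked cluster. Its 1 call was miR-92a-3p, which is shared by the hairpins miR-92a-1 and miR-92a-2 and so belongs to both clusters. It was the most abundant miRNA late, with 232096 and 120550.5 CPM (E14) and 193909 and 117434 CPM (PGK) at day 4, and 99534 and 97573 CPM (E14) and 87948 and 81085 CPM (PGK) late. Day 4 replicate 2 was the highest in both lines, and the change was -0.86 ± 0.23 (edgeR adjusted p = 0.0234). The call of miR-92a-3p was lost without day 4 E14 replicate 2, day 4 PGK replicate 2 or late PGK replicate 3 (highest edgeR adjusted p = 0.0633). miR-182-5p, of the miR-183 cluster of sensory cells, had the same pattern (152523 and 69373 CPM (E14) and 165878 and 90726 CPM (PGK) at day 4, and 72129 and 57088 CPM (E14) and 70425 and 51283 CPM (PGK) late; -0.93 ± 0.29 (edgeR adjusted p = 0.0416)). The call of miR-182-5p was lost in 6 of 16 alternatives: library totals, and without day 4 E14 replicate 2, late E14 replicate 3, day 4 PGK replicate 2, late PGK replicate 2 or late PGK replicate 3 (highest edgeR adjusted p = 0.133).

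Further falls came from single loci. miR-211-5p, in an intron of Trpm1 and known from melanocytes, held 10.4 and 25.02 CPM (E14) and 9.71 and 17.9 CPM (PGK) at day 4, and 0.0892 and 0.577 CPM (E14) and 0.227 and 0.356 CPM (PGK) late, that is 638 counts at day 4 and 14 late (-5.58 ± 0.57, edgeR adjusted p = 0.000734). The X-linked miR-672-5p, in an intron of Nexmif, went from 811 ± 457 to 82.5 ± 34.5 CPM (SD, n = 4 each) (-3.27 ± 0.49, edgeR adjusted p = 0.00281), and miR-1965 from 1085 ± 281 to 177 ± 99.4 CPM (SD, n = 4 each) (-2.77 ± 0.41, edgeR adjusted p = 0.00263). miR-449a-5p, typical of ciliated cells, fell by 2.02 ± 0.30 (edgeR adjusted p = 0.00263), whereas miR-34a-5p, which has the same seed (-0.59), and miR-34c-5p (-0.17), were not called. Of the whole miR-34 and miR-449 list 3 of 9 arms fell (median -0.59), against 16% of all tested miRNAs. Hosted by Astn1, miR-488-3p fell from 98.5 ± 44.9 to 28.1 ± 6.40 CPM (SD, n = 4 each) (-1.74 ± 0.31, edgeR adjusted p = 0.00465).

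Families that are abundant in many tissues were not called: 0 of 12 arms of miR-30 (median -0.22), 0 of 5 of miR-26 (0.02), 0 of 4 of miR-29 (-0.17) and 0 of 5 of miR-101 (-0.21). Nor were the 8 arms of miR-130 and miR-301 (-0.27). This depends on the scaling. With library totals 3 arms of miR-30 (median 0.29), 1 of miR-26 (0.52) and 2 of miR-130 and miR-301 (0.21) were called higher, and 0 of miR-29 and miR-101. Of miR-148 and miR-152 2 of 6 rose (0.12), of miR-221 and miR-222 1 of 4 fell (-0.75) and of miR-183 1 of 6 fell (-0.58). In the list of miR-15, miR-16, miR-195a and miR-497 1 of 10 arms fell (-0.38), namely miR-195a-3p. miR-30 arms take part in muscle and epithelial programmes, miR-29 in control of DNA methylation enzymes and miR-101 in control of Ezh2. Of 54 tested miRNAs of the Sfmbt2 intron families, repeated rodent miRNAs, 2 rose. Near-identical copies share reads, so these members are not separate readouts (median 0.90, 1.75 in E14 and 0.21 in PGK). Those calls numbered 13 without late PGK replicate 2, 12 without day 4 PGK replicate 3 and 0 without any 1 of the other 6 libraries.

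Within each line, the tests had 2 libraries a side. In E14 47 miRNAs rose (6.18%) and 42 fell (5.52%), and in PGK 43 rose (5.65%) and 48 fell (6.31%). Called in both lines were 23 higher and 25 lower miRNAs and 0 in opposite directions. The lines share no libraries, but their tests shared the filter, the scaling and the estimated spread. Of those called over both lines, all 97 higher and 120 of 122 lower ones had the same sign in each line. They were picked by a fit to these same libraries, which favours a shared sign, so this is a description only. These counts rest on few libraries. The E14 rises numbered 1 to 27 without any 1 of the 4 E14 libraries and 3 without late PGK replicate 2 or 3, and the E14 falls 4 to 11 without any 1 of those libraries except day 4 E14 replicate 3 (29). The PGK rises numbered 4 to 10 without any 1 of the 4 PGK libraries, and the PGK falls 23, 24 and 31 without late replicate 3, late replicate 2 and day 4 replicate 2.

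**Figure D4:**
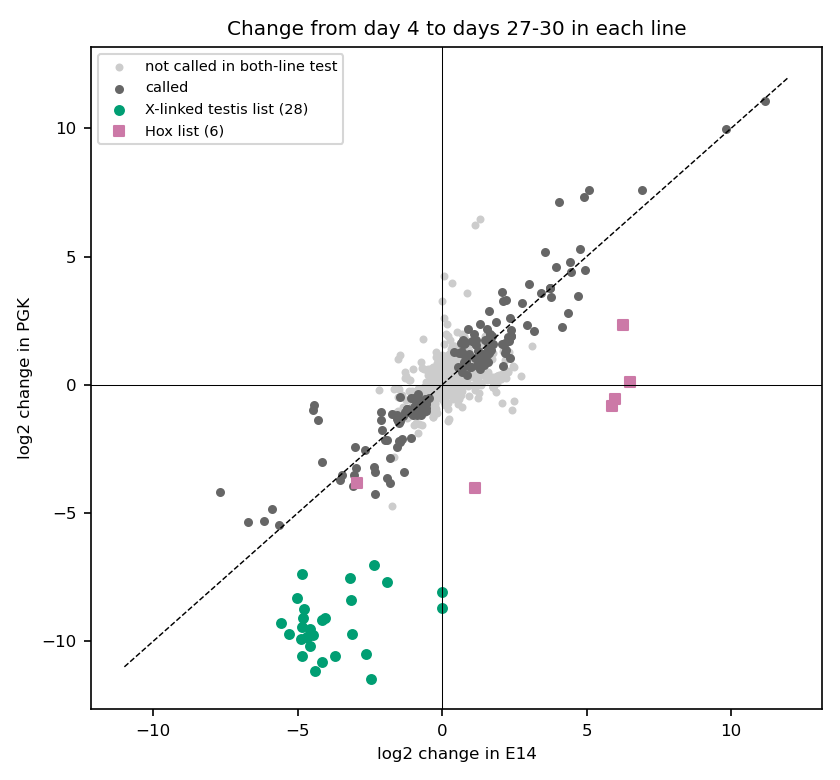
Log2 change from day 4 to days 27 to 30 in PGK (y axis) against that in E14 (x axis) for 761 miRNAs, called over both lines in dark grey, with the 28 X-linked testis miRNAs in green and 6 Hox miRNAs as squares. Most called miRNAs lie near the dashed line of equal change, the testis miRNAs lie below it (2 without any count in E14 are at 0), and 5 Hox miRNAs lie well to its right.

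No miRNA was called for a difference between the lines in this change by edgeR (0%), while 57 had an unadjusted p under 0.05 and DESeq2 called 16. Without late E14 replicate 2 edgeR called 2, both arms of miR-615. With the differentiation experiment as a replicate block, 4 were called: miR-871-5p, miR-871-3p, miR-741-3p and miR-465b-5p, each of which fell further in PGK, by 4.97 for miR-871-3p (edgeR adjusted p = 0.0318) to 6.67 for miR-871-5p on the log2 scale. The testis list's median change was -4.44 in E14 and -9.49 in PGK, from day 4 levels that also differed.

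Hox cluster miRNAs, which lie among the genes that pattern the body axis, were high in 1 late library. miR-10b-5p, in the Hoxd cluster, had 149 and 99.2 CPM (E14) and 1317 and 148 CPM (PGK) at day 4, and 502 and 14304 CPM (E14) and 399 and 421 CPM (PGK) late. Late E14 replicate 3, the day 30 library, held over 10 times more than any other, and PGK day 4 replicate 2 was the next. miR-10a-5p had 25.3 and 12.8 CPM (E14) and 22.3 and 11.5 CPM (PGK) at day 4, and 51.5 and 2888 CPM (E14) and 39.6 and 130.3 CPM (PGK) late and miR-615-3p, in Hoxc5, 0.808 and 0.824 CPM (E14) and 3.27 and 5.01 CPM (PGK) at day 4, and 7.13 and 97.7 CPM (E14) and 2.95 and 2.67 CPM (PGK) late, again with E14 replicate 3 on top. Of the 6 tested members of the list only miR-196a-1-3p was called, at -3.41 ± 0.77 (edgeR adjusted p = 0.0125). The 3 above were not called (4.30 ± 1.42, edgeR adjusted p = 0.0521 for miR-10a-5p). Without late E14 replicate 3, miR-10b-5p changed by 0.45 and miR-10a-5p by 2.03, the latter then called (edgeR adjusted p = 0.0291). All 4 late values of miR-10a-5p lay above all 4 day 4 values, and it was called in 8 of 16 alternatives (DESeq2 adjusted p = 0.000104). miR-615-3p was called in 2 of the 16, DESeq2 and the fit on all 20 libraries, and miR-10b-5p in 0. The list had 4 higher calls among 11 tested members without late E14 replicate 2, and 2 among 6 with DESeq2. The X-linked miR-1298-5p, hosted by the serotonin receptor gene Htr2c, had 84.7 and 50.03 CPM (E14) and 16.3 and 2.86 CPM (PGK) at day 4, and 3.39 and 2.64 CPM (E14) and 3.62 and 5.97 CPM (PGK) late, with changes of -4.48 ± 0.81 in E14 and -0.997 ± 0.730 in PGK, a difference that edgeR did not call (unadjusted p = 0.0106). DESeq2 called that line difference for miR-1298-5p (-3.51, DESeq2 adjusted p = 0.0451), and also for miR-10b-5p (6.69), miR-196b-5p (6.35) and miR-615-3p (6.52 on the log2 scale).

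Both arms of a hairpin tended to be called together. Of 267 hairpins with both arms tested 103 had at least 1 called, and in 54 of them both were called, in the same direction in all 54. The changes had the same sign in 101 of the 103. By chromosome, the X held 43 of the 122 falls among its 98 tested miRNAs (8 rose), 28 of them from the testis cluster. Chromosome 12, which had more tested miRNAs than any other chromosome, held 32 falls and 5 rises. Its count of falls is therefore not comparable with those of smaller sets. Chromosome 8 had 12 rises and 3 falls among 25. Over all tested miRNAs 12.7% rose and 16% fell. Whether falls or rises were concentrated on any chromosome was not tested.

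The stages in between show when the called changes took place, as a description that shares the day 4 and late libraries with the calls and that is scaled over all 20 libraries. Of the 97 higher miRNAs 64 had passed the midpoint of their log2 change at day 10 and 84 at days 19 to 23 (means of 4 libraries). Of the 122 lower ones 103 and 121 had. miR-375-3p was fast, with 679 CPM (range 211 to 1323) at day 4, 4181 CPM (range 829.7 to 5898) at day 10 and 8648 CPM (range 5861 to 11406) at days 19 to 23, before 4876 CPM (range 1633 to 9631) late. miR-199a-5p was slow, with 3.01 CPM (range 0.261 to 8.32) at day 10 and 26.2 CPM (range 3.34 to 78.5) at days 19 to 23, before 69.1 CPM (range 14.7 to 114) late. miR-214-3p, at 0 at days 0 and 4, had 1.13 CPM (range 0.174 to 3.73) at day 10.

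Among falls, miR-871-3p was already down at day 10, at 43.7 CPM (range 2.28 to 124.5), whereas miR-141-3p had 253 CPM (range 195 to 297.4) then and 23.2 CPM (range 16.9 to 28.7) at days 19 to 23. The mean of naive day 0 cells lay on the late side of the day 4 mean for 59 of the 97 higher and 67 of the 122 lower miRNAs. The late mean was past the day 0 mean for 72 of the higher and 72 of the lower ones. let-7e-5p had 447 CPM (range 303 to 600.4) at day 0, 182 CPM (range 127 to 249) at day 4 and 539.8 CPM (range 449.4 to 699.5) late, and miR-127-3p had 37447 CPM (range 29154 to 44767), 148177 CPM (range 78866 to 238939) and 47032 CPM (range 29655 to 71694).

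**Figure D5:**
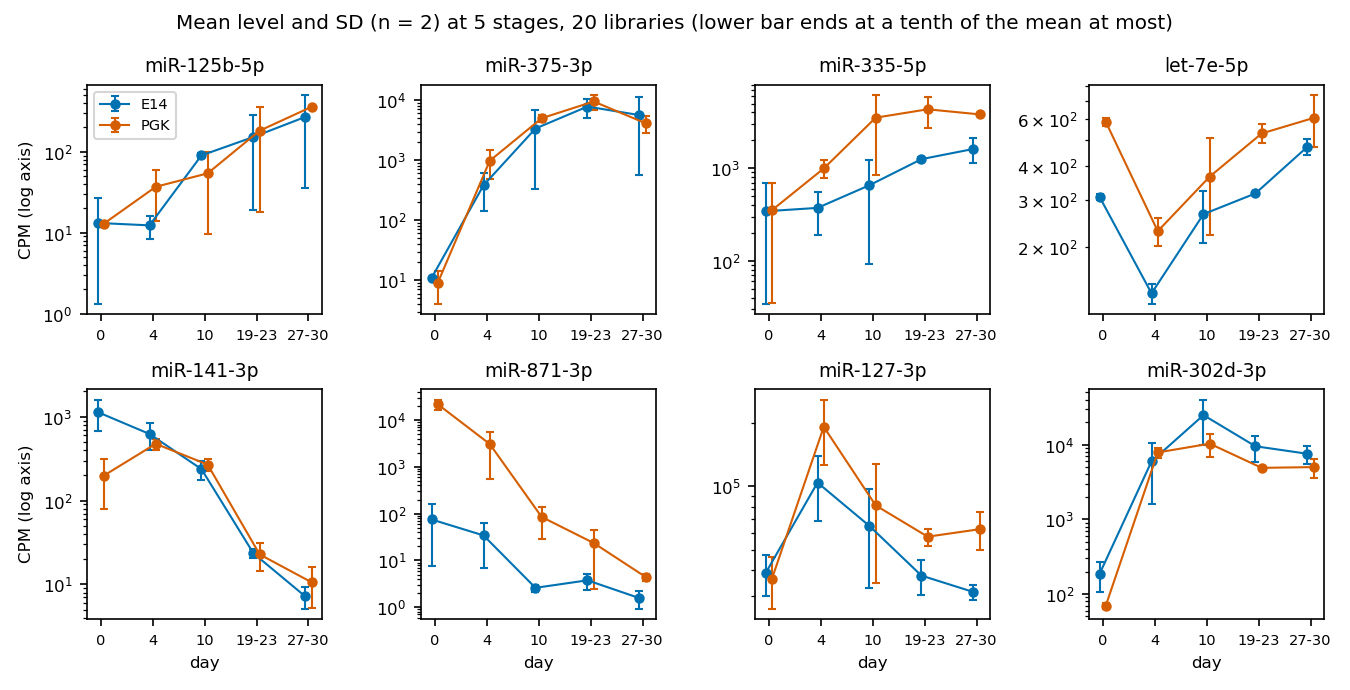
Mean CPM and SD (n = 2 libraries, log axis) of 8 miRNAs at 5 stages (x axis, day) in E14 (blue) and PGK (orange), scaled over all 20 libraries. miR-125b-5p is highest at days 27 to 30 and miR-375-3p at days 19 to 23, let-7e-5p has its lowest and miR-127-3p its highest mean at day 4, miR-141-3p has its lowest mean at days 27 to 30, and miR-302d-3p is above its day 0 level from day 4 on.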

How the data were processed

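Small RNA libraries were made with Illumina's procedure from DNase-treated RNA of cells taken up in Trizol, per the labels' protocols. The authors deposited 1 table of raw read counts per miRNA for each line, and 0 columns of per-sample values in them were left unassigned. The submitters' processing notes name CASAVA 1.8.2, DESeq2 and GRCm38/mm10. Which aligner and annotation were used, and how reads matching several loci or either strand were counted, is not given in the sources used here.

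Rows in both tables (1063) were joined. miRNAs that failed edgeR's expression filter by line and stage were left out, and 761 were tested with edgeR 4.0.16 (R 4.3.3): TMM scaling and the quasi-likelihood F test, with line and stage as terms over both lines, and 4 line-by-stage groups for each line and for the difference between lines. P-values were adjusted by Benjamini-Hochberg over all 761 at 0.05, and an SE is the log2 change divided by the square root of F. The code was tested on simulated data. Alternatives used RLE scaling, library totals, TMM without Dlk1-Dio3 miRNAs, DESeq2 1.42.0, no filter or a 10 CPM minimum, all 20 libraries, a replicate block, each line alone and leaving out each library. After seeing the data, an experiment term within each stage and a fit without the testis list were added.

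The experiment name in the labels gives same-numbered libraries of a line a common differentiation experiment. Their deviations from group means correlated at 0.043 (E14) and 0.048 (PGK) between the stages, and those of the lines at 0.578 (day 4) and 0.137 (late). Replicates of a group were not repeat deposits: their counts differed by a chi-square of 323 to 980 per degree of freedom, where sampling noise gives about 1.

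Named miRNAs were the 12 largest rises and falls with at least 50 CPM and no overlap, the other arms of their hairpins, the 10 most abundant late miRNAs and up to 4 members of each of 32 lists; others are named where a count is small, chosen after their values were seen. Members and lists were chosen with earlier results of these data known. Positions and sequences come from RefSeq GRCm38.p6, and hosts and 139 positions from GENCODE M21 (GRCm38).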

Additional observations from a re-analysis of the deposited data

Results flagged for a closer look

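In 48 groups of 4 libraries, 2 had 1 library far from the other 3, and chance alone does this in about 1 in 20 groups. At day 4, miR-199a-5p stood at 6.35 CPM in PGK replicate 2, against 1.43 to 2.16 CPM in the other day 4 libraries. Also at day 4, miR-871-5p stood at 1453.5 CPM in PGK replicate 2, against 241 CPM in PGK replicate 3 and 15.1 and 2.37 CPM in E14. Among the miRNAs listed in 1 table only, which entered no comparison, 4 of the PGK table had more than 3 counts in a library, the highest being miR-742-5p with 36.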

How the results depend on the processing

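Over both lines, rises were 12.7% and falls 16% of tested miRNAs. With library totals they were 20.4% and 8.54%. With a mean of at least 10 CPM the falls numbered 81 instead of 122, 16.3% of the 496 then tested. Leaving out 1 library gave 7.88% to 13.3% rises (63 to 106 miRNAs) and 8.88% to 17.4% falls (71 to 139). In E14 the 47 rises became 29 at 10 CPM, 96 with DESeq2 and 27 in E14 alone (1 to 41 with 1 library left out), and the 42 falls 25 with library totals, 77 with DESeq2 and 19 in E14 alone (4 to 36). In PGK the 43 rises became 93 with library totals, 85 with DESeq2 and 27 with all 20 libraries (4 to 49), and the 48 falls 75 with DESeq2 (23 to 57). Differences between the lines numbered 0, 16 with DESeq2, 4 with the replicate block and 0 to 2 with 1 library left out. The replicate block gave 90 rises and 102 falls over both lines, and the added fits 123 and 165 (experiment term) and 92 and 104 (without the testis list). Where calls moved and the number of miRNAs or libraries was the same, the cause was not tested. The library totals raised the share of calls that were rises from 44.3% to 70.5%; it was 37.8% with TMM computed without Dlk1-Dio3 miRNAs and 28.9% with all 20 libraries. No called miRNA changed sign under any alternative run. Of 72 named miRNAs with a call 54 kept it in every alternative and 18 lost it in at least 1, and of 15 without a call 7 gained one in at least 1. Signs turned for 3 uncalled miRNAs: the log2 change of let-7c-5p was -0.053 with all 20 libraries (-0.24 to 0.36 with 1 library left out), the log2 change of miR-21a-5p 0.45 with library totals and 0.076 at 10 CPM (-0.17 to 0.080), and the log2 change of miR-302d-3p -0.0076 with TMM without Dlk1-Dio3 and -0.16 with all 20 libraries (-0.30 to 0.29). Depth limits the miRNAs near 0 counts, whose folds are bounds.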
